A study of Mus musculus with 7 samples.

Results

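Venule and vein endothelial cells line the vessels that drain blood from the brain's capillaries. In suspensions of mouse brain microvessels profiled by droplet single-cell RNA sequencing, 4200 cells of 31753 endothelial cells, out of 39315 cells kept in all, were taken as venous by a gate on named genes and are called venous-gated cells here. A kept cell had at least 500 genes and at most 15% of its UMIs (unique molecular identifiers, 1 per captured transcript) from mitochondrial genes. An endothelial cell had at least 3 of 8 endothelial genes detected (Pecam1, Cdh5, Cldn5, Flt1, Ly6c1, Egfl7, Itm2a and Eng) and at most 1 UMI in all of Vtn, Acta2 and C1qa, genes of pericytes, smooth muscle and microglia. A venous-gated cell had at least 3 of 8 venous genes detected (Vwf, Ackr1, Lrg1, Vcam1, Tmem252, Adgrg6, Ch25h and Lcn2) and at most 1 of 5 genes of fenestrated, capillary or arterial endothelium (Plvap, Rbp7, Gpihbp1, Bmx and Gkn3).

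The suspensions came from untreated C57Bl6 mice, 3 libraries at 12 months of age and 4 at 3 months. A single hemisphere per mouse was used, without brain stem, olfactory bulb or cerebellum, and after collagenase digestion the cells were pulled down with magnetic beads that carried an antibody to CD31, an endothelial surface protein. The 12-month libraries carried a single index and were processed with Cell Ranger 4.0.0. The 3-month libraries carried a dual index and were processed with Cell Ranger 6.1.1. The 12-month libraries were also shallower, so age, index, software version and depth cannot be told apart. Sex is mixed with age in part. The first and second 3-month libraries held Xist and no Ddx3y, and the others were taken as male. The labels number the libraries as replicates without saying that each is a separate mouse, so a p-value measures the spread between these libraries.

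Venules just behind the capillaries are the site where leukocytes leave the blood. Their endothelium carries selectins, on which leukocytes roll, and Icam1 and Vcam1, to which their integrins bind, and it raises these molecules when interleukin 1 or tumour necrosis factor activates the transcription factor NF-kappa B. Venous identity is set by the nuclear receptor Nr2f2 (COUP-TFII), which represses Notch signalling, while arterial identity is maintained by Notch.

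The venous-gated cells were selected on the detection of the gate genes, so the values of these genes are a description. Vwf, the clotting protein von Willebrand factor, was detected in 91.3% to 98.4% of venous-gated cells per library at 12 months and in 97.8% to 99.6% at 3 months, against 23.9% to 39.7% and 26.3% to 38.1% of the other endothelial cells. Ackr1, the atypical chemokine receptor of venules, was detected in 18.3% to 42.5% of venous-gated cells at 12 months and in 13% to 24.3% at 3 months, against 0.300% to 1.15% and 0.377% to 0.990% of the other endothelial cells. Tmem252 and Vcam1 were detected in 84.1% to 96.0% and in 76.6% to 93.3% of venous-gated cells over the 7 libraries. In CPM (counts scaled to a fixed total, the UMIs of all venous-gated cells of a library), Vcam1 lay between 997 and 1199 at 12 months and between 495 and 644 at 3 months. Lcn2, an iron-binding acute phase protein, lay between 154 and 879 CPM at 12 months and between 51.6 and 161 CPM at 3 months. Ackr1 lay between 141 and 416 CPM at 12 months and between 33.0 and 81.4 CPM at 3 months, and Lrg1, a secreted acute phase glycoprotein, between 154 and 644 CPM and between 37.2 and 134 CPM. Vwf lay between 1246 and 1399 CPM at 12 months and between 863 and 1130 CPM at 3 months. Vwf, Vcam1, Ackr1 and Lrg1 did not overlap between the ages, while Lcn2, Tmem252, Ch25h and Adgrg6 did, Adgrg6 with 72.4 to 163 CPM at 12 months and 87.4 to 174 CPM at 3 months. The gate asks for detected genes and the 12-month cells were shallower, so depth bears on which cells were chosen and on these levels. The part of depth in them was not tested.

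The 7 libraries gave 458, 1138 and 553 venous-gated cells at 12 months and 413, 445, 744 and 449 at 3 months. Their median depth was 2045.5, 5928 and 4021 UMIs per cell at 12 months, against 8857, 14928, 13492.5 and 14094 UMIs at 3 months, 1.97 to 3.19 times that of the other endothelial cells of the same library. Of the 4200 cells, 258 held 3 or more of 10 arterial genes, 657 held 1 of the 5 excluded genes, and 128 were among the highest doublet scores of their library, and 2 barcodes were venous-gated in more than 1 library. Markers of other cells were not at 0. The 8 fibroblast markers, Fn1 among them, summed to between 691 and 1131 CPM at 12 months and between 648 and 1271 CPM at 3 months, where the other endothelial cells had 639 to 768 CPM and 656 to 889 CPM. The 8 B cell markers, Ebf1 among them, summed to between 309 and 374 CPM at 12 months and between 269.6 and 386 CPM at 3 months, where the other endothelial cells had 359 to 531 CPM and 311 to 494 CPM. The part of these in the class differences was not tested. The 10 microglial markers summed to between 60.3 and 130 CPM at 12 months and between 35.1 and 42.6 CPM at 3 months, and 10 pericyte markers to between 32.2 and 90.5 CPM and between 25.3 and 30.9 CPM, with 7 to 10 of the 10 genes seen in each library. Haemoglobin and other red cell genes summed to between 2438 and 12245 CPM at 12 months and between 3130 and 7587 CPM at 3 months, where the other endothelial cells had 9809 to 39300 CPM and 5782 to 21713 CPM. The 8 neutrophil markers summed to at most 2.36 CPM in venous-gated cells. Microglial and pericyte sums did not overlap between the ages, and their part in the age differences was not tested. Across genes, the first 3-month library correlated with the other 3-month libraries at 0.944 to 0.966, against 0.979 to 0.988 among those 3, and the first 12-month library was the shallowest.

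**Figure D1:**
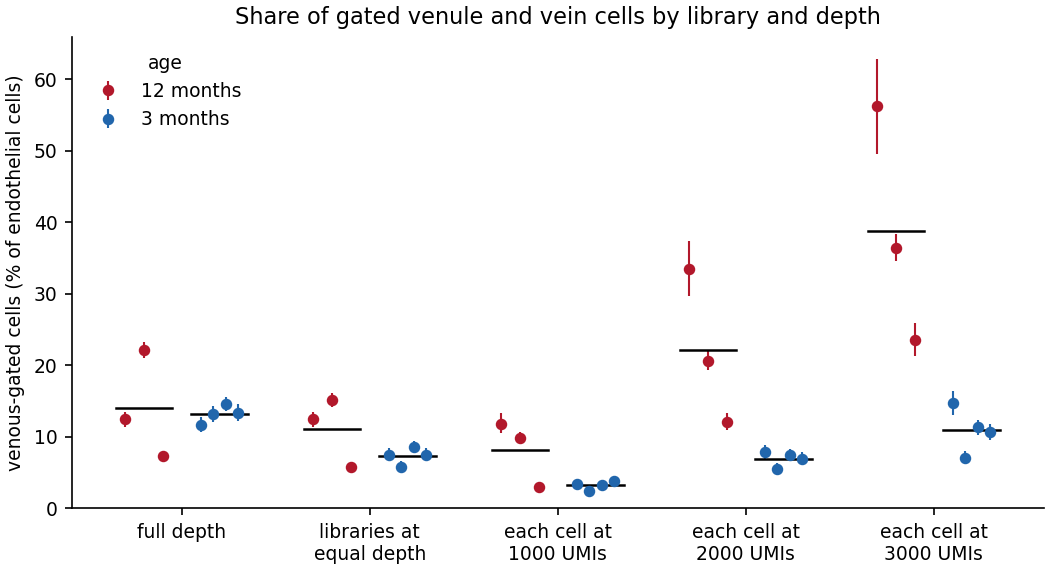
Venous-gated cells as a percentage of endothelial cells (y axis) in each library at 12 months (red) and 3 months (blue), at full depth and after 4 ways of thinning; points are libraries with 95% exact binomial intervals (counting error only) and bars are group means. At 2000 UMIs per cell the 12-month libraries lie at 12.1% to 33.4% and the 3-month libraries at 5.5% to 7.85%, while at full depth the ages overlap.

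Whether venous-gated cells took a different share of the endothelium at 12 months depended on how depth was handled. With each cell thinned to 2000 UMIs and the gate applied to the thinned counts, they made up 33.4%, 20.6% and 12.1% of endothelial cells at 12 months, against 7.85%, 5.5%, 7.47% and 6.87% at 3 months. The 3 libraries at 12 months all lay above the 4 at 3 months (22.1% ± 10.7 against 6.92% ± 1.03, SD, two-sided exact permutation test over 35 assignments, p = 0.0286, the smallest this design allows). Thinning to a fixed number leaves out shallower cells, and only 610 endothelial cells of the first 12-month library remained. At 1000 UMIs per cell the shares were 11.8%, 9.81% and 2.96% at 12 months, against 3.43%, 2.46%, 3.31% and 3.79% at 3 months (exact permutation p = 0.114). There the third 12-month library lay within the 3-month values. At 3000 UMIs per cell the exact permutation p was 0.0286. The filter of at least 500 genes had already left out 1366 of 6697 barcodes of the first 12-month library, and 112 to 499 of each other library. Each library was then thinned by a fraction of its own to the depth of the shallowest, with no further cell left out for depth. The shares were 12.4%, 15.1% and 5.78% at 12 months, against 7.49%, 5.81%, 8.54% and 7.51% at 3 months (exact permutation p = 0.229). At full depth they were 12.4%, 22.1% and 7.33%, against 11.6%, 13.2%, 14.6% and 13.3% (exact permutation p = 0.83). With libraries at equal depth and at full depth the ages overlapped, and the third 12-month library was the lowest of the 7.

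Venous-gated cells were first set against arterial-gated cells of the same libraries, 4750 endothelial cells outside the venous gate with 3 or more of 10 arterial genes detected. The comparison asks which genes beyond the gates separate the 2 ends of the capillary bed, and the genes of both gates are left out of it. By edgeR's quasi-likelihood test on UMI sums per library with library as a block and Benjamini-Hochberg adjustment, 2370 of 11119 genes (21.3%) were higher in venous-gated cells and 1920 (17.3%) lower at an adjusted p under 0.05, and a list's count is read against these shares. Against all other endothelial cells the shares were 20.6% higher and 16.6% lower of 12010 genes.

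Most tested genes of venous identity that the gate did not use were higher in venous-gated cells. Nr2f2, the venous nuclear receptor (ENSMUSG00000030551, chr7:70351944-70366735, minus strand, GRCm38), had 143 to 325 CPM (median 289.9) in venous-gated cells, against 12.7 to 62.0 CPM (median 18.8) in arterial-gated cells. Nrp2, a co-receptor for VEGF-C and semaphorins, had 240.1 to 399 CPM (median 291) in venous-gated cells, against 13.9 to 90.5 CPM (median 24.4) in arterial-gated cells. Neither gene overlapped between the classes (log2 fold change 3.39 ± 0.21 (SE), adjusted p = 2.86e-08 for Nr2f2, and 3.05 ± 0.29, adjusted p = 1.33e-06 for Nrp2). Ephb4, the receptor by which veins recognise arterial ephrin-B2, differed less, with 98.5 ± 13.8 against 57.2 ± 18 CPM (SD, n = 7 libraries, log2 0.79 ± 0.08, adjusted p = 3.6e-06). In all, 11 of 16 tested genes of a venous identity list were higher and 2 lower. Their median log2 fold change was 0.74 beside 0.03 over all genes tested. The venous-gated cells were selected on the detection of other venous genes, which bears on this count. Its part was not tested. Other genes often placed with veins did not pass the test: Flt4, the VEGF-C receptor, had 56.8 ± 14.2 against 60.5 ± 12.1 CPM, Emcn (endomucin) 342 ± 24.5 against 451 ± 132 CPM, and Tek, the angiopoietin receptor Tie2, 378 ± 61.5 against 431 ± 56.5 CPM. Sox18, a vascular transcription factor, was lower, with 281 ± 88.8 against 527 ± 188 CPM (log2 -0.83 ± 0.06, adjusted p = 1.58e-07).

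Arterial genes outside the gates were lower without exception: all 12 tested members of the arterial identity list fell, with a median of -2.17. The arterial-gated cells were themselves selected on the detection of arterial genes, so higher levels of other arterial genes in them follow in part from that choice. The venous gate also excluded cells with more than 1 of 5 genes that include the arterial Bmx and Gkn3. Both choices of cells bear on this count, which is a description, and their part was not tested. Dll4, the arterial Notch ligand, had 17.0 ± 8.51 against 137 ± 34.4 CPM and Jag2, another Notch ligand, 92.8 ± 18.5 against 331 ± 61.7 CPM. Alpl (tissue-nonspecific alkaline phosphatase) had 19.3 ± 9.21 against 402 ± 104 CPM and Unc5b, a netrin receptor, 6.80 ± 2.97 against 151 ± 55.5 CPM. All 4 were lower in each of 7 libraries, by log2 -1.78 for Jag2 to -4.42 for Unc5b (adjusted p = 1.12e-09 and 4.99e-12). The vessel wall matrix moved the same way, with 9 of 11 genes lower and none higher (median -2.33). Mgp, matrix Gla protein, an inhibitor of vessel calcification, had 39.9 to 346 CPM (median 89.9) in venous-gated cells, against 831 to 6499.9 CPM (median 1845) in arterial-gated cells. Cytl1, a secreted cytokine-like protein, had the largest fall among them at -6.40 ± 0.22 (adjusted p = 9.1e-11), with 0 to 2.13 CPM (median 0.990) against 21.1 to 671 CPM (median 96.1). Basement membrane genes were lower in 12 of 15 cases (median -0.71), among them Col18a1 at -5.21 ± 0.14 (adjusted p = 2.58e-11). Edn1, the vasoconstrictor endothelin 1, and Cxcl12, the chemokine that retains lymphocytes, were lower, at log2 -1.18 and -2.21 (adjusted p = 3.74e-06 and 8.73e-08).

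Several receptors of inflammatory cytokines, and genes of the STAT3 and NF-kappa B lists, were higher in venous-gated than in arterial-gated cells, while interferon genes were higher in 6 and lower in 13 of 31 cases (median -0.08). Il1r1, the signalling receptor of interleukin 1 (ENSMUSG00000026072, chr1:40225080-40317257, plus strand, GRCm38), had 143 to 583 CPM (median 175) in venous-gated cells, against 9.49 to 38.0 CPM (median 21.9) in arterial-gated cells. The classes did not overlap (log2 fold change 3.34 ± 0.21 (SE), adjusted p = 3.35e-08). Both chains of the interleukin 6 receptor were higher, Il6ra with 121 ± 42.4 against 33.6 ± 9.26 CPM and its signal-transducing partner Il6st with 324 ± 70.2 against 157 ± 31.7 CPM (log2 1.72 ± 0.14 and 1.09 ± 0.06, adjusted p = 2.67e-07 and 1.36e-08). The tumour necrosis factor receptor Tnfrsf1a differed by 0.39 ± 0.07 (adjusted p = 0.000392), a call that ended, at 0.18, when cells of the classes were matched on UMIs. Of 20 cytokine receptors tested, 10 were higher and 3 lower (median 0.22). In a list of STAT3 and acute phase genes 11 of 14 were higher and 1 lower (median 1.11), among them Cebpd, a transcription factor of the acute phase, with 335 ± 70.8 against 114 ± 14.7 CPM (log2 1.57 ± 0.07, adjusted p = 1.53e-09). Among NF-kappa B genes 13 of 20 were higher and 1 lower (median 0.62), and the leukocyte adhesion list was even, with 5 of 14 higher and 5 lower (median 0.0031). The venous gate selects on the acute phase genes Lcn2 and Lrg1, and on Vcam1, which NF-kappa B raises. The choice of cells therefore bears on the acute phase and NF-kappa B counts, and its part was not tested. Icam1 (ENSMUSG00000037405, chr9:21015985-21028817, plus strand, GRCm38) had 132 to 1164 CPM (median 256) in venous-gated cells, against 21.6 to 88.6 CPM (median 46.0) in arterial-gated cells (log2 fold change 2.97 ± 0.25 (SE), adjusted p = 4.83e-07).

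Of 25 solute carriers tested 15 were higher and 4 lower (median 0.37), while ABC transporters had 4 of 10 higher and 4 lower and genes of vesicle transport 5 of 19 higher and 5 lower. Slc38a5, a glutamine transporter (ENSMUSG00000031170, chrX:8271133-8280179, plus strand, GRCm38), had 443 to 692 CPM (median 646) in venous-gated cells, against 3.8 to 121 CPM (median 46.3) in arterial-gated cells. It was higher in each of 7 libraries (log2 fold change 3.81 ± 0.29 (SE), adjusted p = 1.77e-07). Slc39a8, a manganese and zinc importer, had 181 ± 30.2 against 56.9 ± 24.6 CPM, and Slc16a1, the lactate carrier MCT1, 461 ± 254 against 159.9 ± 121 CPM. Mfsd2a, the transporter of omega-3 lipids at the blood-brain barrier, was one of those lower, with 77.6 ± 26.7 against 192 ± 69.0 CPM (log2 -1.22 ± 0.10, adjusted p = 2.28e-07). Among the genes with the largest differences and no list of their own were F5, coagulation factor V, at log2 3.86 ± 0.11, Wnt5a, a Wnt ligand of the non-canonical branch, at 3.38 ± 0.23, Col6a6, a collagen VI chain, at 3.93 ± 0.31, and Cyp2e1, a cytochrome P450, at 4.21 ± 0.19. Tmsb10, the actin-binding thymosin beta 10, had 1347 to 8299 CPM (median 2516), against 152 to 892 CPM (median 246), highest in both classes in the first 3-month library. The number of calls was 3529 of 10730 genes tested with cells matched on UMIs, 1962 of 7929 with sums thinned to the smallest and 2569 of 8545 with libraries brought to equal depth before gating.

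**Figure D2:**
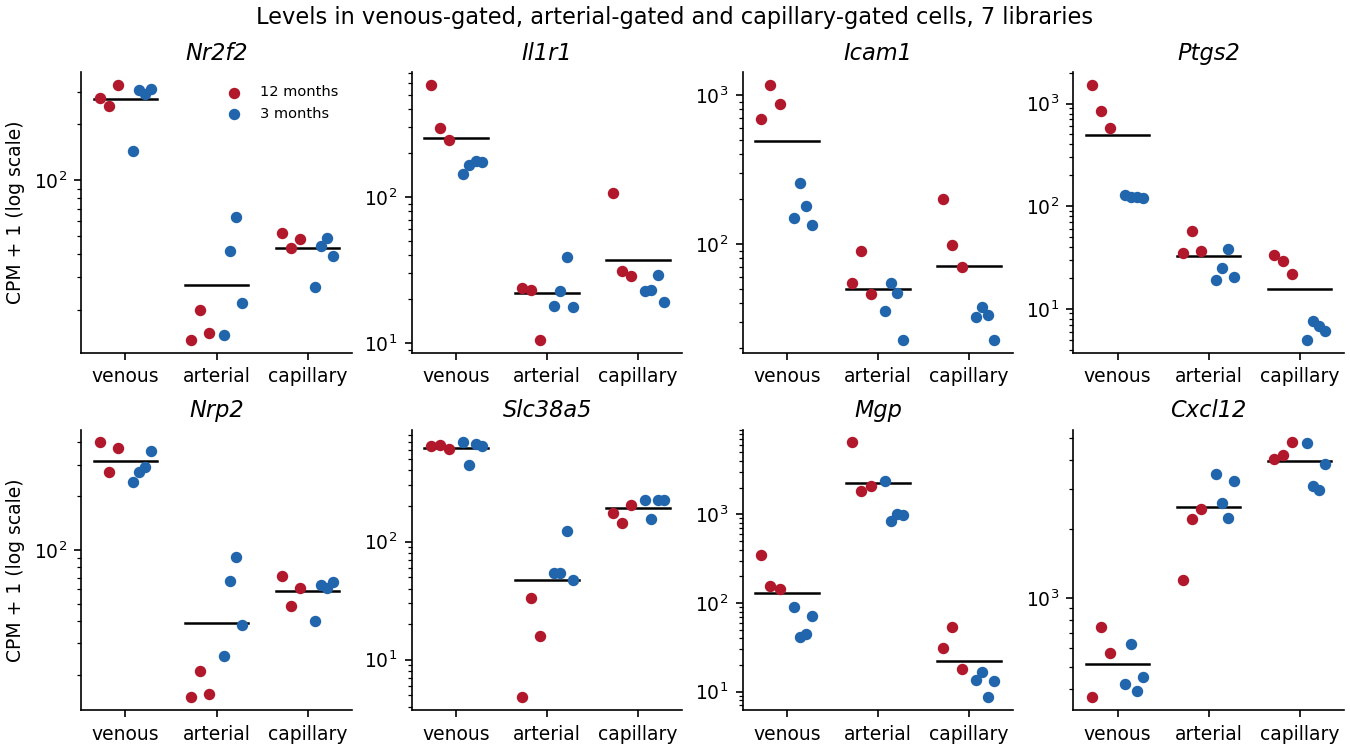
Levels of 8 genes outside the gates (y axis, CPM + 1, log scale) in venous-gated, arterial-gated and capillary-gated cells of each library; red points are the 12-month and blue points the 3-month libraries, and bars are means over 7 libraries. Nr2f2, Nrp2, Il1r1, Ptgs2 and Slc38a5 are higher in venous-gated cells than in both other classes in every library, Mgp is highest in arterial-gated cells, and Cxcl12 is lowest in venous-gated cells.

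Capillary-gated cells, 13555 endothelial cells with 3 or more of 6 capillary genes, fewer than 3 arterial genes and at most 1 venous gate gene, gave the second comparison. By the same test 2279 of 11449 genes (19.9%) were higher in venous-gated cells and 1822 (15.9%) lower. Prostaglandin synthesis had 5 of 12 tested genes higher and 2 lower. Ptgs2, cyclooxygenase 2, the inducible enzyme of prostaglandin synthesis (ENSMUSG00000032487, chr1:150100031-150108227, plus strand, GRCm38), had 119 to 1516 CPM (median 126) in venous-gated cells, against 3.94 to 32.6 CPM (median 6.68) in capillary-gated cells. The lowest venous-gated value was above the highest capillary-gated one (log2 fold change 4.77 ± 0.11 (SE), adjusted p = 5.54e-14). Pla2g4a, the phospholipase that releases its substrate arachidonic acid, had 175 ± 54.7 against 40.0 ± 16.2 CPM (log2 2.21 ± 0.08, adjusted p = 4.81e-12).

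The venous identity list again had 12 of 16 genes higher and 2 lower, with Nr2f2 at 2.74 ± 0.07 and Nrp2 at 2.46 ± 0.07 (adjusted p = 7.11e-14 and 3.56e-13). Il1r1 had 143 to 583 CPM (median 175), against 18 to 106 CPM (median 27.7) in capillary-gated cells (log2 2.96 ± 0.09, adjusted p = 2.8e-13). NF-kappa B genes were higher in 15 of 20 cases and lower in 1 (median 0.57 beside 0.01 over all genes), among them the feedback inhibitor Nfkbia with 1769 ± 788 against 903 ± 263 CPM. The venous gate selects on Vcam1 and other venous genes, and the capillary gate allows at most 1 venous gate gene. Both bear on this count and on that of the venous identity list. The chemokine Cxcl10, which draws T cells, had 51.1 ± 30.0 against 3.47 ± 2.15 CPM, while Cxcl12 had 510.1 ± 142 against 3972 ± 727 CPM, higher and lower in all 7 libraries (log2 3.67 ± 0.16 and -2.94 ± 0.11, adjusted p = 2.79e-11 and 6.7e-12). Complement genes were higher in 6 of 9 cases and lower in 2. MHC class I genes, which present peptides to T cells, were higher in 16 of 21 cases and lower in none, with H2-K1 at 1519.8 ± 291 against 912 ± 400.5 CPM and H2-Q7 at 198 ± 73.1 against 65.7 ± 88.5 CPM. H2-Q genes are near-identical, so reads could be split between them. Fth1, the ferritin heavy chain, had 5497 ± 2447 against 1537 ± 308 CPM (log2 1.76 ± 0.13, adjusted p = 1.29e-08), and 79 of 81 ribosomal protein genes were higher, though processed pseudogenes share their sequence.

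More solute carriers and basement membrane genes were lower than higher, while junction genes (4 of 17 higher and 4 lower), ABC transporters (2 of 10 and 2), vesicle transport (7 of 18 and 7) and leukocyte adhesion (3 of 14 and 4) were near even. Of 24 solute carriers tested, 6 were higher and 14 lower (median -0.26). Slco1c1, a thyroid hormone transporter, had 683 ± 244 against 1416 ± 278 CPM, and Slc1a1, a glutamate transporter, 71.3 ± 21.3 against 230.3 ± 21.5 CPM (log2 -1.07 ± 0.09 and -1.65 ± 0.08, adjusted p = 3.74e-08 and 8.52e-11). Slc38a5 was on the other side, at 1.72 ± 0.08, with 443 to 692 CPM (median 646) against 142 to 225 CPM (median 201). Wnt signalling, which maintains the barrier, had 11 of 22 genes lower and 4 higher, among the lower ones Notum (a secreted Wnt inhibitor) at -0.94 ± 0.10 and Reck (the co-receptor for Wnt7 ligands) at -0.72 ± 0.06. Lrp8, an apolipoprotein E receptor, was lower, at log2 -1.25 ± 0.10 (adjusted p = 6.94e-08). Basement membrane genes had 14 of 18 lower and none higher (median -0.60), with the perlecan gene Hspg2 at -1.01 ± 0.10 and Col4a2 at -0.52 ± 0.06. Mgp and Eln (elastin) were higher than in capillary-gated cells, by 2.39 ± 0.19 and 2.10 ± 0.11, so for Mgp venous-gated cells lay between the other 2 classes. Ttr, a choroid plexus transcript, had 1.21 to 456 CPM (median 69.9), against 2.52 to 3934 CPM (median 1716) in capillary-gated cells, and a part of free RNA in it was not tested. With cells of the classes matched on UMIs 2183 of 9810 genes were called, with sums thinned to the smallest 1590 of 7773, and with libraries at equal depth 2546 of 9673.

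**Figure D3:**
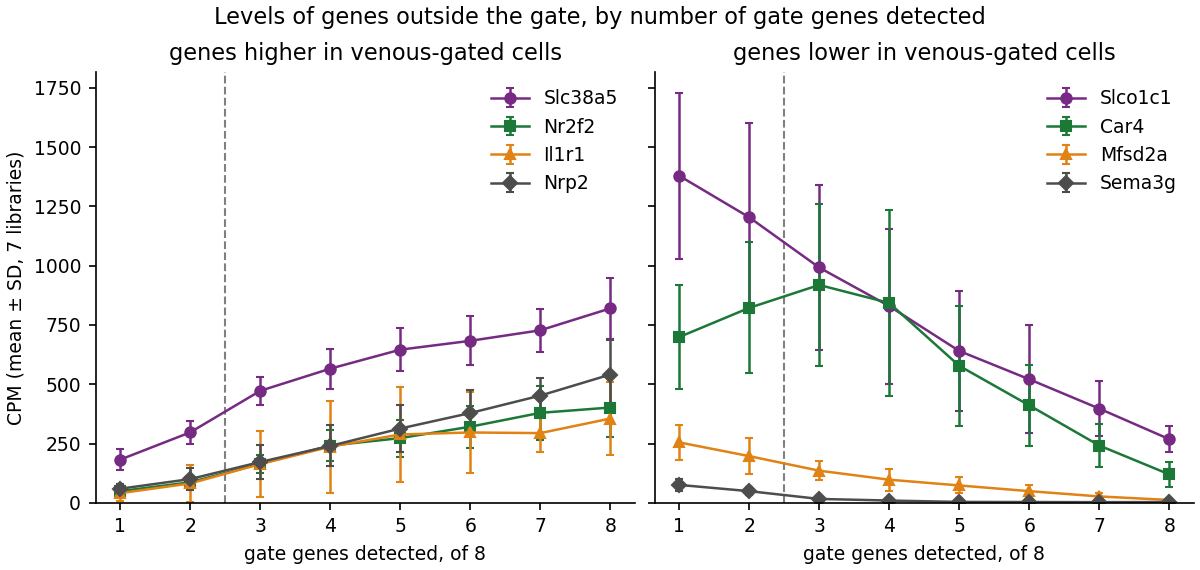
Mean level (y axis, CPM, ± SD over 7 libraries) of 4 genes higher and 4 genes lower in venous-gated cells, in endothelial cells with at most 1 excluded gene, by the number of the 8 venous gate genes detected (x axis). The dashed line marks the threshold of the gate; Nr2f2 runs between 49.2 CPM at 1 gene and 402 CPM at 8 genes, and Mfsd2a between 255 and 12.0 CPM.

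Within the gate the cells were not alike. Of the 4200, 1539 had exactly 3 gate genes detected, 959 had 4, 570 had 5, 432 had 6, 358 had 7 and 342 had all 8, while 3605 cells with exactly 2 lay just outside. The values by number of gate genes describe a graded series, and deeper cells show more genes, so depth and identity move together in it. Nr2f2 averaged 165 ± 37.6 CPM just inside the threshold and 86.7 ± 21.5 CPM just outside (SD, 7 libraries), and reached 402 ± 126 CPM at 8 genes. Slc38a5 averaged 472 CPM inside and 297 CPM outside, and 819.99 CPM at 8 genes. Nrp2 and Il1r1 were at 172 and 164 CPM inside, 100.1 and 81.8 CPM outside, and 541 and 355 CPM at 8 genes. The capillary gene Mfsd2a ran the other way, with 136 CPM inside, 197 CPM outside and 12.0 CPM at 8 genes. Car4, a carbonic anhydrase of capillaries, did not fall steadily: it was 699, 822 and 919 CPM at 1, 2 and 3 genes and 120.1 CPM at 8. Sema3g, an arterial semaphorin, was at 16.4 CPM inside and 49.2 CPM outside. Outside the gate the same directions held between 1 and 2 genes, with Nr2f2 at 49.2 CPM, Slc38a5 at 182 CPM, Mfsd2a at 255 CPM and Sema3g at 75.7 CPM in cells with 1 gene.

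Ackr1 is known as a receptor of venules in many organs. Venous-gated cells in which it was detected at a fixed depth were therefore set against the others of the same libraries. Ackr1 is also a gate gene, so this split uses a value that chose the cells. The gate and the graded series above bear on the differences below, and their part was not tested. Each cell was thinned to 2000 UMIs before Ackr1 was read, which left out 365 shallower cells. This gave 44, 309 and 70 Ackr1-detected cells at 12 months and 40, 24, 38 and 43 at 3 months. Ackr1-undetected cells therefore include cells that held Ackr1 at full depth. In the fourth 3-month library 24.3% of 449 venous-gated cells held it at full depth, and 43 were placed as Ackr1-detected. Of 6352 genes tested, 225 (3.54%) were higher and 159 (2.5%) lower in Ackr1-detected cells. Ribosomal protein genes made up 49 of the higher calls, of 80 tested with none lower. The same test by DESeq2 gave 167 higher and 73 lower, a share of higher calls of 69.6% beside 58.6%. The second 12-month library held most of the Ackr1-detected cells, and without it 228 genes were called, 136 higher and 92 lower, among 4191 tested.

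Prostaglandin and acute phase genes were higher in Ackr1-detected cells, in 4 of 8 and 6 of 10 genes tested, with none and 1 lower. Ptgs2 had 3523, 1264 and 957 CPM in Ackr1-detected cells at 12 months and 225, 375, 579 and 256 CPM at 3 months. In Ackr1-undetected cells it had 389, 429 and 433 CPM at 12 months and 132, 124, 104 and 112 CPM at 3 months. It was higher in Ackr1-detected cells in each of 7 libraries (log2 fold change 1.86 ± 0.15 (SE), adjusted p = 5.28e-16). Ifitm1, an interferon-induced membrane protein, had 227 ± 125 against 41.7 ± 23.4 CPM (log2 2.48 ± 0.15, adjusted p = 2.09e-21) and Cd14, the co-receptor for bacterial lipopolysaccharide, 102 ± 67.0 against 23 ± 13.8 CPM (log2 2.20 ± 0.26, adjusted p = 1.31e-09), both higher in 7 of 7 libraries. Of 15 venous identity genes 7 were higher and none lower, with Nrp2 at 0.79 ± 0.12 and Il1r1 at 0.71 ± 0.12 (adjusted p = 7.56e-07 and 1.52e-05). Sele, E-selectin, was higher in 5 of 7 libraries (log2 1.34 ± 0.24, adjusted p = 3.96e-05) and was listed at 0 in Ackr1-detected cells of the second and the fourth 3-month libraries. Cd14 and Sele were too low to be tested without the second 12-month library.

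Solute carriers were mostly lower in Ackr1-detected cells. Of 24 solute carriers 16 were lower and 1 higher (median -0.55 beside -0.02 over all genes), and of 22 Wnt genes 7 were lower and none higher, while DESeq2 called 2 of the 22 lower. Slco1c1 had 269 ± 99.9 against 759.8 ± 258 CPM and Slc7a1, the arginine carrier, 127 ± 55.5 against 339 ± 106 CPM, both lower in 7 of 7 libraries (log2 -1.29 ± 0.14 and -1.22 ± 0.14, adjusted p = 1.91e-10 and 5.93e-10). Tfrc, the transferrin receptor, and Car4 were lower, at log2 -1.20 ± 0.16 and -1.93 ± 0.15 (adjusted p = 3.51e-08 and 2.21e-17). Apcdd1, a Wnt inhibitor that marks barrier endothelium, was at -1.08 ± 0.14 (adjusted p = 3.51e-08). Axin2, a general Wnt target, was at -0.73 ± 0.20 (adjusted p = 0.0104), a call that ended, at -0.73, without the second 12-month library. Fth1 was higher in 7 of 7 libraries, with 9184 ± 2949 against 4143 ± 1431 CPM. Haemoglobin transcripts moved too: Hbb-bs had 835 ± 1248 against 2859 ± 2212 CPM (log2 -2.20 ± 0.28, adjusted p = 7.14e-09), and the part of free red cell RNA in these differences was not tested.

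Between the ages, 288 of 11693 genes (2.46%) were higher in venous-gated cells at 12 months than at 3 months and 58 (0.496%) lower, by edgeR's quasi-likelihood test with Benjamini-Hochberg adjustment over all genes. With libraries at equal depth 129 genes were called (112 higher and 17 lower) and with sums thinned to the smallest 161 (136 and 25). Lists of leukocyte adhesion, chemokines, cytokine receptors, NF-kappa B and immediate early genes held some of the higher ones, and most higher genes lay outside them. In the adhesion list 4 of 17 genes were higher and none lower (median 0.34 beside -0.02 over all genes). Icam1 had 684, 1164 and 866 CPM at 12 months, against 147, 256, 178 and 132 CPM at 3 months. Every library at 12 months lay above every library at 3 months (log2 fold change 2.44 ± 0.27 (SE), adjusted p = 0.000375). Sele had 79.3, 153 and 34.1 CPM at 12 months, against 5.54, 1.43, 1.48 and 0.806 CPM at 3 months, and Selp, P-selectin, had 67.5, 76.4 and 29.3 CPM at 12 months, against 4.38, 1.04, 0.577 and 1.75 CPM at 3 months. Both selectins were near 0 at 3 months and did not overlap between the ages (5.61 ± 0.58 and 5.27 ± 0.49 on the log2 scale, adjusted p = 0.000234 and 0.000144).

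The neutrophil-attracting chemokines moved with the adhesion molecules, and 3 of 8 chemokines were higher and 1 lower. Cxcl2 (ENSMUSG00000058427, chr5:90903871-90905938, plus strand, GRCm38) had 152, 156 and 50.3 CPM at 12 months, against 4.84, 4.55, 1.73 and 0 CPM at 3 months. The third 12-month library was the lowest of its age but still above all at 3 months (log2 fold change 5.63 ± 0.63 (SE), adjusted p = 0.000413). Cxcl1 had 172, 212 and 82.2 CPM at 12 months, against 34.4, 37.9, 35 and 19.7 CPM at 3 months (log2 2.39 ± 0.32, adjusted p = 0.00131). Cxcl10 had 109.9, 64.5 and 59.9 CPM at 12 months, against 30.0, 32.9, 34.8 and 25.5 CPM at 3 months (log2 1.41 ± 0.22, adjusted p = 0.00452). Neither overlapped between the ages. The gate genes Lcn2, Lrg1, Ackr1 and Vcam1 described above are given no test, since they chose the cells.

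NF-kappa B genes were higher in 7 of 19 cases and lower in none (median 0.47). The venous gate selects on Vcam1, Lcn2 and Lrg1. That choice of cells bears on the age counts of the adhesion, chemokine, cytokine receptor, NF-kappa B and STAT3 lists. Its part was not tested. Nfkbiz, the inducible nuclear I kappa B zeta, had 392, 399.8 and 293 CPM at 12 months, against 45.0, 98.2, 57.6 and 61.4 CPM at 3 months (log2 fold change 2.57 ± 0.25 (SE), adjusted p = 0.000185). Tnfaip3, the feedback inhibitor A20, and the subunit gene Rel were higher by 1.64 ± 0.26 and 1.30 ± 0.20 (adjusted p = 0.00471 and 0.0034), and Rel fell short of the threshold when sums were thinned to the smallest, at 0.94. Of 21 cytokine receptors 7 were higher and none lower (median 0.18). Osmr, the oncostatin M receptor (ENSMUSG00000022146, chr15:6813577-6874969, minus strand, GRCm38), had 156, 171 and 132 CPM at 12 months, against 60.2, 87.7, 75.9 and 72.8 CPM at 3 months (log2 fold change 1.15 ± 0.17 (SE), adjusted p = 0.0034). Il17ra, the interleukin 17 receptor, had 45.5, 33.2 and 18.8 CPM at 12 months, against 8.07, 9.23, 9.48 and 9.54 CPM at 3 months (log2 1.89 ± 0.25, adjusted p = 0.00127). For Il1r1 the first 12-month library decided the size: it had 583, 295 and 246 CPM at 12 months, against 143, 165, 175 and 172 CPM at 3 months, and its log2 fold change of 1.29 ± 0.26 (adjusted p = 0.0192) was 0.81 without that library. Targets of STAT3 were higher in 4 of 15 cases and lower in none, with Socs3, the feedback inhibitor of cytokine signalling, at 485, 344 and 544 CPM at 12 months, against 130.3, 94.6, 89.0 and 117 CPM at 3 months. The kinase Pim1 was higher by 1.89 ± 0.18 and Socs3 by 2.18 ± 0.22 (adjusted p = 0.000185 and 0.000194).

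Immediate early genes, which many stimuli induce quickly and briefly, were higher in 14 of 23 cases and lower in none (median 1.12). Atf3, a stress-responsive transcription factor, had 1793, 1004 and 985 CPM at 12 months, against 134, 118, 96.6 and 101 CPM at 3 months (log2 fold change 3.58 ± 0.27 (SE), adjusted p = 2.93e-05). Fos had 4799.6, 4121 and 3918 CPM at 12 months, against 1262, 1226, 1079 and 1152 CPM at 3 months, and Fosb had 1519, 2239.7 and 2156 CPM at 12 months, against 192, 735, 381 and 256 CPM at 3 months. All 3 were separate between the ages, with Fos at 1.96 ± 0.21 and Fosb at 2.44 ± 0.39 on the log2 scale (adjusted p = 0.000263 and 0.00452). Ptgs2 had 1516, 850.5 and 579.7 CPM at 12 months, against 126, 123, 121 and 119 CPM at 3 months (log2 fold change 3.10 ± 0.29 (SE), adjusted p = 0.000144), and the 3-month values lay within a few CPM of each other while the 12-month values spread widely. Rnd1, a small GTPase that loosens the actin cytoskeleton, had 65.2, 173 and 132 CPM at 12 months, against 15.9, 20.4, 13.6 and 11.6 CPM at 3 months (log2 fold change 3.13 ± 0.30 (SE), adjusted p = 0.000183). Gadd45b and Cdkn1a, genes of growth arrest, were higher by 2.44 ± 0.24 and 1.93 ± 0.29 (adjusted p = 0.000185 and 0.0033), but Cdkn1a was the only one of 14 tested genes of the p53 and arrest list to pass. Heat shock genes passed in 2 of 14 cases, Dnajb1 at 1.46 ± 0.18 and Hsph1 at 1.52 ± 0.25 (adjusted p = 0.000807 and 0.00523).

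**Figure D4:**
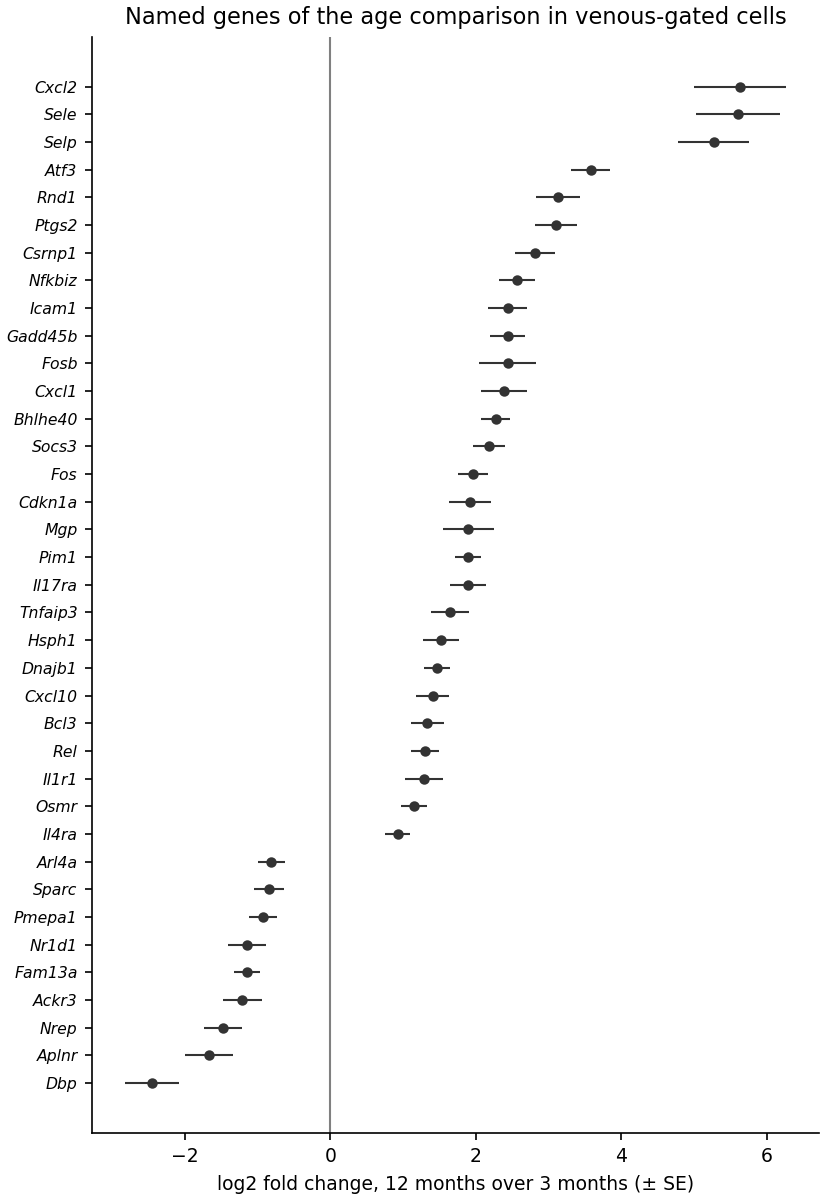
Log2 fold change of 12 months over 3 months (x axis) with its standard error for the 37 named genes of the age comparison in venous-gated cells, ordered by size; the vertical line marks 0. Cxcl2, Sele and Selp lie above 5 with the widest errors, and Dbp is the lowest at -2.45.

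Lower genes were fewer and less stable. Dbp, an output gene of the circadian clock, had 9.42, 15.6 and 14.3 CPM at 12 months, against 105, 72.0, 107 and 38.1 CPM at 3 months (log2 fold change -2.45 ± 0.37 (SE), adjusted p = 0.0034), and the ages did not overlap. In the clock list 4 of 17 genes were higher and 2 lower, and the repressor Bhlhe40 was among the higher ones, with 445, 409 and 341 CPM at 12 months, against 73.1, 114, 79.5 and 86.6 CPM at 3 months (log2 fold change 2.28 ± 0.20 (SE), adjusted p = 8.52e-05). Nrep, a small protein of regenerating neurons, and Fam13a were lower, at log2 -1.48 ± 0.27 and -1.15 ± 0.17 (adjusted p = 0.00968 and 0.00344), with means of 29.2 ± 11.7 against 92.1 ± 22.7 CPM for Nrep and 31.4 ± 4.78 against 76.4 ± 12.3 CPM for Fam13a (SD, n = 3 and 4). Aplnr, the apelin receptor, which marks veins, had 14.9, 6.14 and 13.4 CPM at 12 months, against 35.3, 23.7, 31.1 and 50.0 CPM at 3 months (log2 -1.67 ± 0.33, adjusted p = 0.0156), and lost its call, at -1.21, without the second 12-month library. Sparc, a matrix glycoprotein, had 667, 976 and 786 CPM at 12 months, against 1513, 1472, 1622 and 1654 CPM at 3 months and an adjusted p of 0.0456 (log2 -0.85 ± 0.20), and lost its call without any of the libraries except the first 3-month one. None of the 26 solute carriers or 22 Wnt genes tested passed in either direction in edgeR's test, with medians of -0.24 and -0.13. Over all genes 2.46% were higher and 0.496% lower, shares at which a list of this size would hold few calls or none. At an unadjusted p under 0.05, 1 solute carrier was higher and 4 lower, and 1 Wnt gene was lower, and DESeq2 called 2 solute carriers lower and no Wnt gene. MHC class I genes passed in none of 21 cases (2 higher at an unadjusted p under 0.05, and 0 by DESeq2). At the shares over all genes, the absence of calls is no result about the solute carrier, Wnt or MHC class I lists.

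Of the 37 genes named in the age comparison, 27 passed without each library in turn, and Il1r1, Il4ra, Bcl3, Nr1d1, Sparc, Ackr3, Aplnr, Arl4a, Pmepa1 and Mgp did not. The total of 346 calls was 107 without the second 12-month library (100 higher and 7 lower), 167 without the third and 208 without the fourth 3-month library, and 600 without the first 3-month library. The first 2 of the 3-month libraries held Xist and no Ddx3y, and with the other 5 libraries 317 genes were higher and 70 lower.

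The promoters of genes higher at 12 months are shown for the chemokines because NF-kappa B genes moved with them. Promoters were searched from 250 bases before the start, as RefSeq gives it on GRCm38.p6, into a shorter stretch after it. The sequences printed below hold only the 250 bases before the start. On either strand the 10-base kappa B consensus was found in 35 of 196 matched promoters of the 288 higher genes (17.9%). It was found in 2 of 41 matched promoters of the 58 lower genes (4.88%). It was found in 573 of 9097 matched promoters of all genes tested (6.30%) and in 1388 of 27025 promoters in all (5.14%). Of the 10 highest named genes, 8 had a promoter in the table and 3 held the consensus, Cxcl1, Cxcl2 and Fosb, printed here from 5′ to 3′ on the gene's strand with the matched bases in capitals: chr5:90890995-90891244 (plus strand) for Cxcl1, chr5:90903649-90903898 (plus strand) for Cxcl2 and chr7:19310046-19310295 (minus strand) for Fosb.
Cxcl1: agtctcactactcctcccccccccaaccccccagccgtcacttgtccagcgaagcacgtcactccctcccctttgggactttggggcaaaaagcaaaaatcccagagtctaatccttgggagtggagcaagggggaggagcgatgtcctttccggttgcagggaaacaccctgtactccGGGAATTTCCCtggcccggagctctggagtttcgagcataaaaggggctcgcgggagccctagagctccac
Cxcl2: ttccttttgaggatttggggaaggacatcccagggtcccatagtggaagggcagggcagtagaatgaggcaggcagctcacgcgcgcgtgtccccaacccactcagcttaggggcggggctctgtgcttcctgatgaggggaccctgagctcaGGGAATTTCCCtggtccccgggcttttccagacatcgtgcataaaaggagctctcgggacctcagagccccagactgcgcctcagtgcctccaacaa
Fosb: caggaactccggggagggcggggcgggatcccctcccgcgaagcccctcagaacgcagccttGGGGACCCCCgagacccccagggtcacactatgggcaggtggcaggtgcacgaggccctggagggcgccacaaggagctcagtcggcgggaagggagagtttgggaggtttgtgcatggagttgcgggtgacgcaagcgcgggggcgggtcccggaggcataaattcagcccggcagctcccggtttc
In Cxcl1 and Cxcl2 the consensus matched on both strands, shifted by 1 base and overlapping, at positions -71 to -61 and -97 to -87 from the start, and the capitals are the same 11 letters in both genes. In Fosb it matched once in the printed bases, on the minus strand, at -188 to -179. A match describes the letters of the sequence, and binding was not measured.

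**Figure D5:**
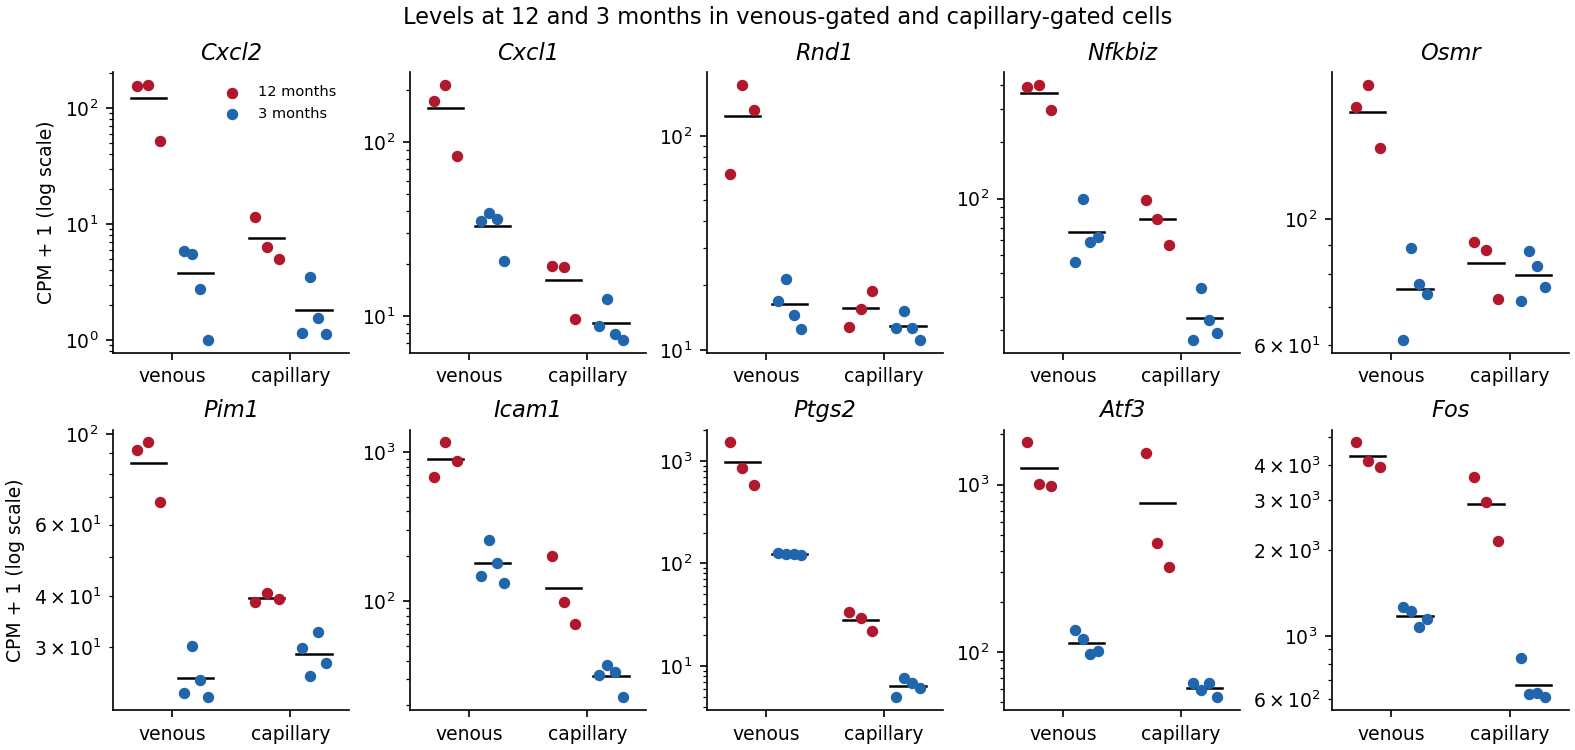
Levels of 10 genes (y axis, CPM + 1, log scale) in venous-gated and capillary-gated cells at 12 months (red) and 3 months (blue); points are libraries and bars are group means. Cxcl2, Cxcl1, Rnd1, Nfkbiz, Osmr and Pim1 differ more between the ages in venous-gated cells, while Icam1, Ptgs2, Atf3 and Fos are higher at 12 months in both classes.

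Whether the age difference of venous-gated cells differed from that of capillary-gated cells was tested as an interaction. Both classes came from the same libraries and so shared index and software version, but not UMIs per cell. Venous-gated medians were 2045.5, 5928 and 4021 UMIs at 12 months, against 1044, 2241 and 1630 in capillary-gated cells. At 3 months they were 8857, 14928, 13492.5 and 14094, against 2756, 4430, 3836 and 4118.5. The gap was wider at 3 months, and its part in the interaction was not tested. Log2 age differences are signed here, so a smaller one can also be a deeper fall at 12 months. Arl4a, counted as smaller, averaged 467 CPM at 12 months and 881 CPM at 3 months in venous-gated cells. In capillary-gated cells it averaged 671 and 755 CPM. Of 12207 genes, 211 (1.73%) had a larger log2 age difference in venous-gated cells and 237 (1.94%) a smaller one. The balance turned at equal depth (59 larger and 32 smaller), with sums thinned to the smallest (47 and 32), by DESeq2 (133 and 118) and without any of the libraries except the second 3-month one (219 and 89 without the first 3-month library). NF-kappa B genes had 7 of 20 larger and 1 smaller (median 0.40 beside -0.01 over all genes). Cytokine receptors had 4 of 21 larger and none smaller. The venous gate selects on Vcam1, Lcn2 and Lrg1, while the capillary gate allows at most 1 venous gate gene. Both choices of cells bear on these counts, and their part was not tested. Rnd1 had 65.2, 173 and 132 CPM at 12 months and 15.9, 20.4, 13.6 and 11.6 CPM at 3 months in venous-gated cells. In capillary-gated cells it had 11.7, 14.6 and 17.9 CPM at 12 months and 11.7, 14.2, 11.6 and 10.1 CPM at 3 months. The age difference of Rnd1 was larger in venous-gated cells by 2.76 ± 0.17 on the log2 scale (adjusted p = 2e-08), and its capillary values overlapped. Osmr averaged 153 CPM at 12 months and 74.2 CPM at 3 months in venous-gated cells, and 82.7 and 78.5 CPM in capillary-gated cells (difference 0.96 ± 0.10, adjusted p = 2.04e-05). Pde4b, a phosphodiesterase that degrades cyclic AMP, averaged 78.2 and 33.5 CPM in venous-gated cells and 25.2 and 40.7 CPM in capillary-gated cells, with means in opposite directions (difference 1.80 ± 0.22, adjusted p = 0.000122). Cxcl1 and Cxcl2 differed by 1.38 ± 0.19 and 2.68 ± 0.58 (adjusted p = 0.000363 and 0.0167).

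For some genes the difference was negative. Fmo2, a flavin monooxygenase, averaged 232 CPM at 12 months and 171 CPM at 3 months in venous-gated cells, and 181 and 67.3 CPM in capillary-gated cells (difference -1.0 ± 0.15, adjusted p = 0.000957). Id2, an inhibitor of transcription factors of the helix-loop-helix family, averaged 128 and 108 CPM in venous-gated cells and 136 and 64.4 CPM in capillary-gated cells (difference -0.79 ± 0.11, adjusted p = 0.000444). Interferon genes had 1 of 31 larger and 6 smaller, and MHC class I genes none larger and 3 of 21 smaller. The immediate early list had 4 of 23 larger and 1 smaller (median -0.07). Icam1, Ptgs2, Atf3 and Fos, among the clearest age differences in venous-gated cells, were not called here, with differences of 0.62 ± 0.26, 0.46 ± 0.20, 0.10 ± 0.20 and -0.25 ± 0.12 (adjusted p = 0.189, 0.204, 0.846 and 0.259). The total of 448 calls was 134 without the second and 132 without the third 12-month library, and 184 without the third and 254 without the fourth 3-month library, and without the second 12-month library Cxcl2 lost its call, at 2.14, as it did, at 1.66, without the second 3-month library.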

How the data were processed

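Endothelial cells of mouse brain microvessels were profiled in 7 droplet libraries, 3 at 12 months and 4 at 3 months. The authors deposited unnormalized UMI counts for each gene in each barcode, made with Cell Ranger 4.0.0 at 12 months and 6.1.1 at 3 months, per the file headers. The submitters' processing notes name mm10 and Seurat, and whether introns were counted was not stated there. Libraries held 8706961 to 44861008 UMIs, and the yfp feature had 0 UMIs in every one.

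The gates were applied to the full counts, UMIs were summed per library and class, and the sums were tested with edgeR 4.0.16 (quasi-likelihood, Benjamini-Hochberg adjustment over all genes tested, threshold 0.05), with library as a block between classes. The age test compared 3 with 4 sums. DESeq2 1.42.0, filters, gates, depth matching and leaving out each library were alternatives. A test on simulated counts came first. Scrublet (in scanpy 1.11.5) set its own threshold at 0 to 107 barcodes a library and so gave no usable doublet call, and the top 0.8% per 1000 barcodes by score were removed as an alternative. The equal depth setting and the fit on male libraries were chosen after seeing the data. R was 4.3.3 and Python 3.11.15, and gene coordinates came from GENCODE on GRCm38. Intervals on shares cover counting error only.

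The members and gene lists were chosen with earlier results of these data known, so no list's direction is independent evidence. Between ages the named genes passed the threshold, did not overlap between ages and had a mean of at least 50 CPM, for the 10 highest and 10 lowest, plus up to 3 of each list by smallest p. For the highest and lowest genes the lack of overlap was thus part of the choice and adds no support. Between classes and for Ackr1 they were the 10 highest and 10 lowest and up to 4 of each list by size, and any tested venous identity gene or cytokine receptor in the arterial comparison. In the interaction they were the 5 highest and 5 lowest. Icam1, Ptgs2, Atf3, Fos and Osmr in the interaction, and the genes shown by number of gate genes, were picked with their values in view. A few genes that the rule names are not reported here.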

Additional observations from a re-analysis of the deposited data

Results flagged for a closer look

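In 8 of 111 groups of 4 libraries at 3 months (7.21%) 1 library stood apart from the others by more than the 95% critical value of Dixon's test, which chance does in about 1 group in 20. The first 3-month library was the one in 6 of them. Its Nr2f2 was 143 CPM, against 289.9 to 309 CPM in the other 3 libraries, and its Ephb4 was 83 CPM, against 107 to 111 CPM. Il6ra was 67.3 CPM there, against 95.2 to 99.9 CPM, and Id2 72.9 CPM, against 119 to 121 CPM. It was the highest in Ier3, at 1475 CPM against 759 to 850 CPM, and in Sele, at 5.54 CPM against 0.806 to 1.48 CPM. The other 2 were Notum in the second 3-month library (51.3 CPM, against 37.6 to 39.0 CPM) and Cd24a in the fourth (2.69 CPM, against 4.12 to 4.29 CPM).

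Of 43 genes looked at, 21 had a log2 age difference (12 months over 3 months) in venous-gated cells that differed from that in capillary-gated cells in edgeR's interaction test. The 10 genes with the 5 highest and 5 lowest differences were picked by this same test, so this count is a description, beside 1.73% larger and 1.94% smaller over all genes. Among genes of chemokines, cytokine receptors and NF-kappa B the venous-gated minus the capillary-gated difference was 1.38 for Cxcl1, 2.68 for Cxcl2, 1.37 for Il17ra, 0.75 for Nfkbiz, 0.96 for Osmr, 1.10 for Rel and 1.19 for Tnfaip3. Il17ra averaged 32.5 CPM at 12 months and 9.08 CPM at 3 months in venous-gated cells, and 8.14 and 8.23 CPM in capillary-gated cells. Among genes of other roles it was 1.11 for Bhlhe40, 1.64 for Cd24a, 1.00 for Csrnp1, 0.41 for Dnajb1, 1.31 for Gadd45b, 1.80 for Pde4b, 1.24 for Pim1 and 2.76 for Rnd1. Bhlhe40 averaged 398 CPM at 12 months and 88.3 CPM at 3 months in venous-gated cells, and 189.5 and 91.3 CPM in capillary-gated cells. It was negative for 6 genes, at -0.63 for Ackr3, -0.75 for Arl4a, -0.74 for Crispld1, -0.96 for Dusp6, -1.0 for Fmo2 and -0.79 for Id2. Dusp6 averaged 54.1 CPM at 12 months and 88.7 CPM at 3 months in venous-gated cells, and 150.4 and 126 CPM in capillary-gated cells.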

How the results depend on the processing

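Named genes kept their direction in the alternatives run, and in 40 of 41 cases against arterial-gated and 31 of 31 against capillary-gated cells their call without each library. The 346 age calls were 769 with no filter, 161 with sums thinned to the smallest, 129 at equal depth, 517 by DESeq2, 387 with male libraries only and 107 to 600 without each library. With the replicate number as a block they were 305 (256 higher, 49 lower); the libraries share only a number, since same-numbered libraries correlated at 0.080, 0.216 and 0.0074. In the other settings 28 of 37 named age genes kept their call, and Rel was lost besides genes also lost without a library. Against other endothelial cells 4469 calls became 2006 (thinned), 2916 (equal depth) and 3722 to 4499 without each library. Against arterial-gated cells 4290 became 1962 (thinned), 2569 (equal depth) and 3631 to 4413, and Osmr lost its call without the second or the third 12-month library. Against capillary-gated cells 4101 became 1590 (thinned), 2183 (matched on UMIs), 2546 (equal depth) and 3332 to 4093. The Ackr1 comparison's 384 became 240 by DESeq2, 160 with at least 4 gate genes and 228 to 431 without each library, and with no filter 369, of which 39.3% were higher; Cxcl10 and Axin2 lost calls without the second 12-month library. The interaction's 448 became 251 (DESeq2), 79 (thinned), 235 (at least 1000 genes per cell), 91 (equal depth) and 132 to 613, with 42.7% to 71.1% larger without each library and 47.1% with all. The share difference of 15.1 percentage points was 0.769 without thinning, 4.96 at 1000 UMIs, 3.77 at equal depth and 9.46 to 20.1 without each library, where fewer assignments allow no p under 0.05. Fewer genes were tested in thinned sums, and other causes were not tested. Depth and age cannot be told apart.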
